A study of Caenorhabditis elegans with 6 samples.

Results

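Expression of 10 metabolic genes was examined in whole Caenorhabditis elegans worms after RNA interference (RNAi) against daf-2 or cav-1. The 10 genes were chosen by name for their place in the glyoxylate cycle, gluconeogenesis, the glyceraldehyde-3-phosphate dehydrogenase step and alcohol oxidation, out of 46254 genes with counts. They are icl-1, pck-1, pck-2, fbp-1, gpd-1, gpd-2, gpd-3, gpd-4, sodh-1 and sodh-2. All 10 were found in the table, 9 passed the filter on low counts, and sodh-2 did not. Every library came from a pellet of many worms of the strain CF512, which is sterile at the temperature used. The worms were raised from eggs for 48 h at 25 °C and collected on day 1 of adulthood. The controls carried an empty RNAi vector (EV), and the other groups were fed bacteria producing RNA against daf-2 or against cav-1. There were 2 libraries per group, 1 from each of 2 biological repeats, and each repeat held 1 library of every group. RNAi by feeding lowers a transcript without removing the gene, so neither treated group is a null mutant.

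Isocitrate lyase and malate synthase form the glyoxylate shunt, which lets nematodes turn the acetyl units of stored fat into sugar precursors; in C. elegans, icl-1 encodes both activities in a single protein. Phosphoenolpyruvate carboxykinase draws carbon from oxaloacetate toward glucose, and fructose-1,6-bisphosphatase performs a later irreversible step of the same route. Glyceraldehyde-3-phosphate dehydrogenase works in both directions and so serves glycolysis as well as gluconeogenesis. The daf-2 gene encodes the worm's insulin and IGF-1 receptor, which restrains the transcription factor DAF-16, and icl-1 and sodh-1 are known among the genes that respond to this pathway. The direction of that known response was not compared with the changes reported here. The cav-1 gene encodes a caveolin, a membrane protein abundant in the germ line.

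Total counts ran from 25474328 to 32886440 per library. The libraries of the repeats differed widely. In repeat 2, 3622 of 14378 tested genes were higher and 4654 lower at an adjusted p under 0.05. Libraries of the same repeat deviated together, so the repeat was a block in the fit. Differences between the worms and in the handling of the samples cannot be told apart here. The share of counts from mitochondrial protein-coding genes ran from 0.432% to 3.90% and was lower in repeat 2 in every group. The targeted transcripts were checked in every library. daf-2 stood at 42.6 and 188 CPM (counts scaled to a common library total, with TMM factors) with EV in repeats 1 and 2, at 26.4 and 30.6 CPM with daf-2 RNAi, and at 57.9 and 214 CPM with cav-1 RNAi. cav-1 stood at 178 and 184 CPM with EV, at 42.7 and 21.2 CPM with daf-2 RNAi, and at 6.13 and 1.84 CPM with cav-1 RNAi. Each target was lowest in the group labelled for it in both repeats, and cav-1 was also far lower with daf-2 RNAi than with EV.

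In the C. elegans build WBcel235, icl-1 (WBGene00001564) lies on chromosome V at 724332 to 728004 on the minus strand. pck-1 (WBGene00021043) lies on chromosome III at 62888 to 66260, also on the minus strand. pck-2 (WBGene00011232) is on the plus strand of chromosome I at 7866136 to 7872100, and fbp-1 (WBGene00001404) on the minus strand of the same chromosome at 2581015 to 2586124. The glyceraldehyde-3-phosphate dehydrogenase genes form 2 pairs. gpd-2 (WBGene00001684, 3113443 to 3114689) and gpd-3 (WBGene00001685, 3112091 to 3113341) sit 101 bases apart on the minus strand of chromosome X with no gene between them, a known operon in which gpd-2 is upstream. gpd-4 (WBGene00001686, 10171268 to 10172498) and gpd-1 (WBGene00001683, 10394129 to 10395349) lie on the plus strand of chromosome II, 221630 bases apart with 70 genes between them. sodh-1 (WBGene00010790, 11888248 to 11889650, plus strand) and sodh-2 (WBGene00010791, 11889581 to 11891243, minus strand) are neighbours on chromosome V whose 3′ ends overlap by 70 bases. All 10 are annotated as protein coding, and the longest transcripts run from 1121 bases for gpd-1 to 3120 bases for icl-1.

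With daf-2 RNAi, transcripts of pck-1, gpd-2 and gpd-3 rose against EV and sodh-1 fell. That is 3 higher and 1 lower of the 9 genes tested, where 4.31% of all 14378 genes tested were called higher and 3.13% lower. The median log2 fold change of the 9 genes was 0.24, against -0.05 over all genes tested. With cav-1 RNAi none of the 9 passed the test against EV, where 0% of all genes were called higher and 0.00696% lower, the single call being cav-1 itself. At an unadjusted p under 0.05 there were 573 of the 14378 genes tested, icl-1 and sodh-1 among them. That share is below the 0.05 that such a threshold passes on average without any change. The authors' deposited table called 81 genes there. The median of the 9 genes in that comparison was -0.24, against -0.01 over all genes. Set directly against daf-2 RNAi, cav-1 RNAi gave lower levels of icl-1, pck-1, pck-2, gpd-2 and gpd-3, so 5 of 9 were lower and 0 higher, where 6.87% of all genes were called lower and 3.74% higher. The median there was -0.85, against -0.01 over all genes. gpd-2 and gpd-3 are an operon pair nearly identical in sequence, so their calls are not separate. With near-identical pairs summed before the fit, 2 were called higher and 1 lower with daf-2 RNAi against EV. Of all 14376 genes tested in that fit, 619 were called higher and 450 lower there. Between the treatments 4 were then called lower and 0 higher, against 987 lower and 538 higher of all genes. Each summed pair counts once, so these calls are not out of 9. The comparisons share libraries, so they are not separate evidence: both comparisons with EV share the EV libraries, and the comparison of both treatments uses the daf-2 RNAi libraries again. All calls come from limma-trend with Benjamini-Hochberg adjustment and the repeat as a block. Without the block no gene was called in any comparison, and the adjusted p of the 9 genes was 0.753 or more. That fit gave 777, 36 and 827 of the 14378 genes at an unadjusted p under 0.05, in the order above. Calls also changed when single libraries were left out. Those fits had 1 residual degree of freedom against 2. Their prior degrees of freedom were 4.92 without the cav-1 RNAi library of repeat 1 and infinite otherwise, against 8.68 with all libraries. A lost call therefore cannot be laid to the library left out alone. Without the cav-1 RNAi library of repeat 1 gpd-2 gave -1.23 and icl-1 -0.79 between the treatments. Without any single EV or daf-2 RNAi library the rises of pck-1 and gpd-3 had log2 values from 0.83 to 1.16.

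**Figure D1:**
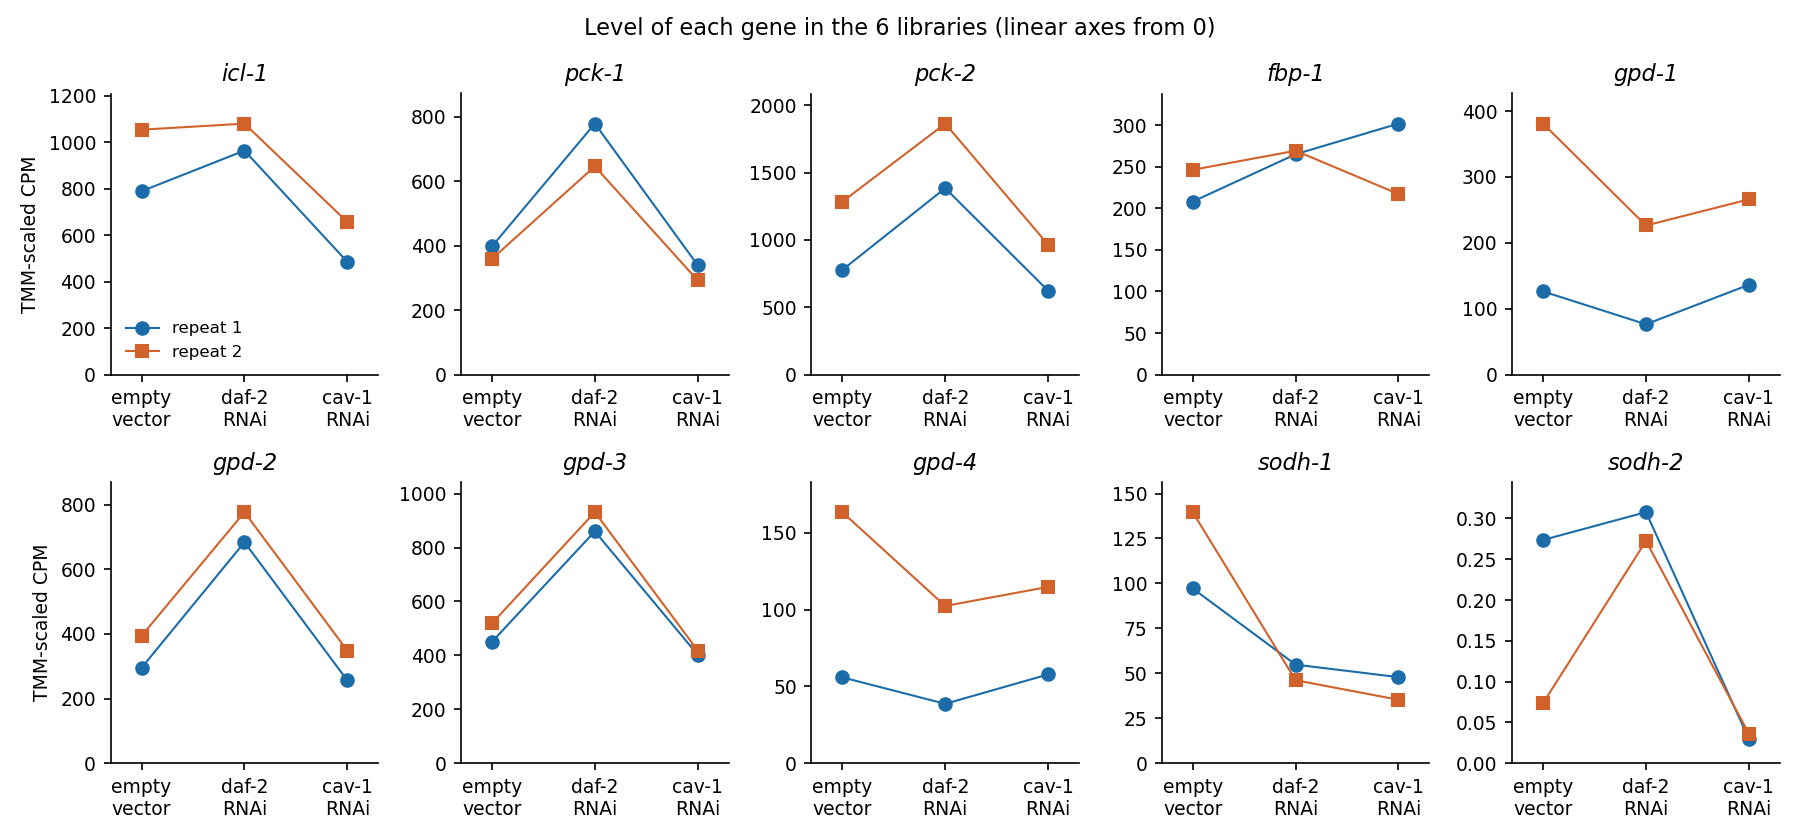
Levels of the 10 genes in TMM-scaled CPM on linear axes that start at 0, with blue circles for repeat 1, orange squares for repeat 2 and thin lines joining the libraries of a repeat. pck-1, pck-2, gpd-2 and gpd-3 peak with daf-2 RNAi in both repeats, as does icl-1 by smaller margins over EV. sodh-1 is highest with EV, and gpd-1 and gpd-4 separate by repeat more than by treatment.

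Phosphoenolpyruvate carboxykinase is encoded by pck-1 and pck-2 in C. elegans. The level of pck-1 was 397 and 359 CPM with EV in repeats 1 and 2, 778 and 646 CPM with daf-2 RNAi, and 339 and 292 CPM with cav-1 RNAi. Both daf-2 RNAi libraries lay above the other 4, and the cav-1 RNAi libraries lay just below those with EV. pck-1 rose by 0.91 (SE 0.21, adjusted p = 0.0261) on the log2 scale with daf-2 RNAi, a fold of 1.87, with 0.97 in repeat 1 and 0.85 in repeat 2. Against daf-2 RNAi it fell by 1.17 (SE 0.21, adjusted p = 0.00733) with cav-1 RNAi. The difference between cav-1 RNAi and EV, -0.26, had a 95% interval from -0.72 to 0.20.

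pck-2 followed the same order of groups at higher levels. Its level was 777 and 1284 CPM with EV, 1385 and 1864 CPM with daf-2 RNAi, and 623 and 966 CPM with cav-1 RNAi. daf-2 RNAi was highest and cav-1 RNAi lowest in both repeats, and the daf-2 RNAi libraries did not overlap either other group. The log2 difference between daf-2 RNAi and EV was 0.68 (SE 0.22), with a 95% interval from 0.21 to 1.16, and did not pass the threshold (adjusted p = 0.0882). pck-2 was lower with cav-1 RNAi than with daf-2 RNAi, with a log2 difference of -1.05 (SE 0.22, adjusted p = 0.0139). pck-2 was also higher in repeat 2 by 0.59 (SE 0.18, adjusted p = 0.0150), while pck-1 differed between repeats by -0.21 (adjusted p = 0.306). The share of pck-1 in the counts of both paralogs was therefore set mainly by the repeat, at 33.8%, 36.0% and 35.2% in repeat 1 and 21.8%, 25.7% and 23.2% in repeat 2 for EV, daf-2 RNAi and cav-1 RNAi. Within a repeat these shares differed by less than 4 points from EV, against a gap between repeats of over 10 points in every group.

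fbp-1, the fructose-1,6-bisphosphatase gene, showed no pattern of this kind. Its level was 208 and 246 CPM with EV, 265 and 269 CPM with daf-2 RNAi, and 302 and 217 CPM with cav-1 RNAi. The cav-1 RNAi libraries held both the highest and the second lowest value of the 6, and the treated groups overlapped. The log2 difference between daf-2 RNAi and EV was 0.24, with a 95% interval from -0.29 to 0.76 (adjusted p = 0.518). Between cav-1 RNAi and EV it was 0.18, with an interval from -0.35 to 0.70, so a change of the size seen for pck-1 with daf-2 RNAi lay outside both intervals.

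The glyoxylate shunt gene icl-1 was called only between the treatments, as was pck-2, and no test compared genes with each other. Its level was 790 and 1055 CPM with EV, 965 and 1081 CPM with daf-2 RNAi, and 486 and 657 CPM with cav-1 RNAi. The EV and daf-2 RNAi libraries overlapped, and both cav-1 RNAi libraries lay below all of them. Within each repeat the daf-2 RNAi library was the highest, in repeat 2 by little. Between daf-2 RNAi and EV the log2 difference was 0.16 (SE 0.21, adjusted p = 0.630), with a 95% interval from -0.31 to 0.64. That interval does not reach the fitted rise of pck-1 but overlaps its interval, from 0.45 to 1.37. Between cav-1 RNAi and EV it was -0.69 (SE 0.21), nearly the same in repeat 1 (-0.70) and repeat 2 (-0.68). It did not pass after adjustment over all genes (unadjusted p = 0.00850, adjusted p = 0.831). icl-1 was lower with cav-1 RNAi than with daf-2 RNAi with a log2 difference of -0.85 (SE 0.21, adjusted p = 0.0326). This call is close to the threshold, with an adjusted p of 0.0519 under median-of-ratios scaling and 0.0631 with TMM factors taken from all genes.

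gpd-2 and gpd-3 behaved alike. The level of gpd-2 was 295 and 394 CPM with EV, 684 and 777 CPM with daf-2 RNAi, and 256 and 348 CPM with cav-1 RNAi. That of gpd-3 was 450 and 519 CPM with EV, 860 and 932 CPM with daf-2 RNAi, and 402 and 418 CPM with cav-1 RNAi. For both genes the daf-2 RNAi libraries stood clear of the other 4, and each cav-1 RNAi library lay below the EV library of its repeat. With daf-2 RNAi gpd-2 rose by 1.09 (SE 0.21, adjusted p = 0.0124) on the log2 scale, a fold of 2.14 and the largest rise among the 9 genes. gpd-3 rose by 0.89 (SE 0.21, adjusted p = 0.0287), a fold of 1.85. The adjusted p of gpd-3 was 0.0556 under median-of-ratios scaling. Against daf-2 RNAi, cav-1 RNAi gave log2 differences of -1.28 for gpd-2 (adjusted p = 0.00511) and -1.12 for gpd-3 (adjusted p = 0.00871). Against EV they were -0.19 and -0.24 and did not pass the test, with 95% intervals from -0.66 to 0.28 and from -0.70 to 0.23. gpd-2 made up between 38.9% and 45.5% of the counts of the operon pair across the 6 libraries.

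gpd-1 and gpd-4, the other pair, did not share this pattern. The level of gpd-1 was 126 and 381 CPM with EV, 76.4 and 226 CPM with daf-2 RNAi, and 136 and 266 CPM with cav-1 RNAi. That of gpd-4 was 55.9 and 163 CPM with EV, 38.6 and 102 CPM with daf-2 RNAi, and 57.8 and 115 CPM with cav-1 RNAi. All 3 libraries of repeat 2 exceeded those of repeat 1 for both genes, and the groups overlapped, but within each repeat the daf-2 RNAi library was the lowest. Repeat 2 was higher than repeat 1 by 1.37 (SE 0.19, adjusted p = 0.000247) for gpd-1 and 1.30 (SE 0.19, adjusted p = 0.000323) for gpd-4 on the log2 scale. Between daf-2 RNAi and EV the log2 differences were -0.73 (SE 0.24, adjusted p = 0.0939) for gpd-1 and -0.60 (SE 0.24, adjusted p = 0.161) for gpd-4. Neither passed the threshold, although the differences within repeats were close, at -0.72 and -0.75 for gpd-1 and -0.52 and -0.67 for gpd-4. In the authors' deposited table gpd-1 was called lower with daf-2 RNAi (log2 fold change -0.75, adjusted p = 0.0292) and gpd-4 was not (-0.63, adjusted p = 0.0839).

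The mix of the 4 genes in each library can be stated as the share of gpd-1 and gpd-4 in their summed counts. With EV it was 19.6% in repeat 1 (95% Wilson interval 19.1% to 20.2%) and 37.4% in repeat 2 (36.9% to 37.8%). With daf-2 RNAi it was 6.93% (6.71% to 7.16%) and 16.1% (15.9% to 16.4%), and with cav-1 RNAi 22.8% (22.3% to 23.3%) and 33.2% (32.7% to 33.7%). Both daf-2 RNAi libraries lay below all 4 others, with differences from EV of -12.7 points in repeat 1 and -21.2 points in repeat 2, and the cav-1 RNAi libraries lay on both sides of their EV partners. The intervals cover counting error only. The 2-sided exact permutation p for daf-2 RNAi against EV was 0.333, the smallest that 2 libraries against 2 allow. Within a pair the genes are nearly identical in sequence, and the sources used here do not say how shared reads were counted. The split within a pair is therefore uncertain, and the share of gpd-1 in its own pair stayed between 66.4% and 70.2%. With each pair summed before the fit, the calls for the operon pair remained.

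Markers of other tissues moved beside both pairs. The summed level of 7 germline and oocyte markers was 2487 and 8509 CPM with EV, 1693 and 5612 CPM with daf-2 RNAi, and 2653 and 7311 CPM with cav-1 RNAi. From highest to lowest, the 6 libraries stood in the same order for the germline sum, for gpd-1 and for gpd-4. All 7 markers lay below 0 on the log2 scale with daf-2 RNAi against EV (median -0.57), and none was called. The summed level of 7 muscle markers was 2759 and 2190 CPM with EV, 3632 and 3349 CPM with daf-2 RNAi, and 2233 and 2077 CPM with cav-1 RNAi. It was highest with daf-2 RNAi, as were gpd-2 and gpd-3. All 7 muscle markers lay above 0 with daf-2 RNAi against EV (median 0.57), of which 1 was called, and all 7 lay below 0 with cav-1 RNAi against daf-2 RNAi (median -0.79), of which 3 were called. Hypodermal markers summed to between 600 and 689 CPM with EV, 925 and 1357 CPM with daf-2 RNAi, and 528 and 884 CPM with cav-1 RNAi. Most of that sum was the adult cuticle collagen col-19, at 866 and 1242 CPM with daf-2 RNAi, and 3 of 6 tested hypodermal markers lay above 0 with daf-2 RNAi against EV and 3 below (log2 -0.68 to 1.66), with 2 called higher, col-19 and grd-10. Neuronal markers summed to 188 and 230 CPM with EV, 241 and 298 CPM with daf-2 RNAi, and 193 and 246 CPM with cav-1 RNAi. Within each repeat this sum too was highest with daf-2 RNAi. Of 7 neuronal markers 6 lay above 0 with daf-2 RNAi against EV (median 0.37). With cav-1 RNAi against daf-2 RNAi 1 of 7 lay above 0 (median -0.51), and none was called in either comparison. Intestinal markers summed to 292 and 566 CPM with EV, 309 and 708 CPM with daf-2 RNAi, and 282 and 730 CPM with cav-1 RNAi. Of 7 intestinal markers 4 lay above 0 with daf-2 RNAi against EV (median 0.14). There ges-1 was called higher (1.56, adjusted p = 0.00395) and pept-1 lower (-1.69, adjusted p = 0.00742). With cav-1 RNAi against daf-2 RNAi both were called in the opposite directions (-1.55 and 2.03). No marker summed here was at 0 in any library. In these whole-worm libraries, fewer cells of a type and less RNA per cell cannot be told apart, and the part of tissue make-up in the results on the 10 genes was not tested.

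**Figure D2:**
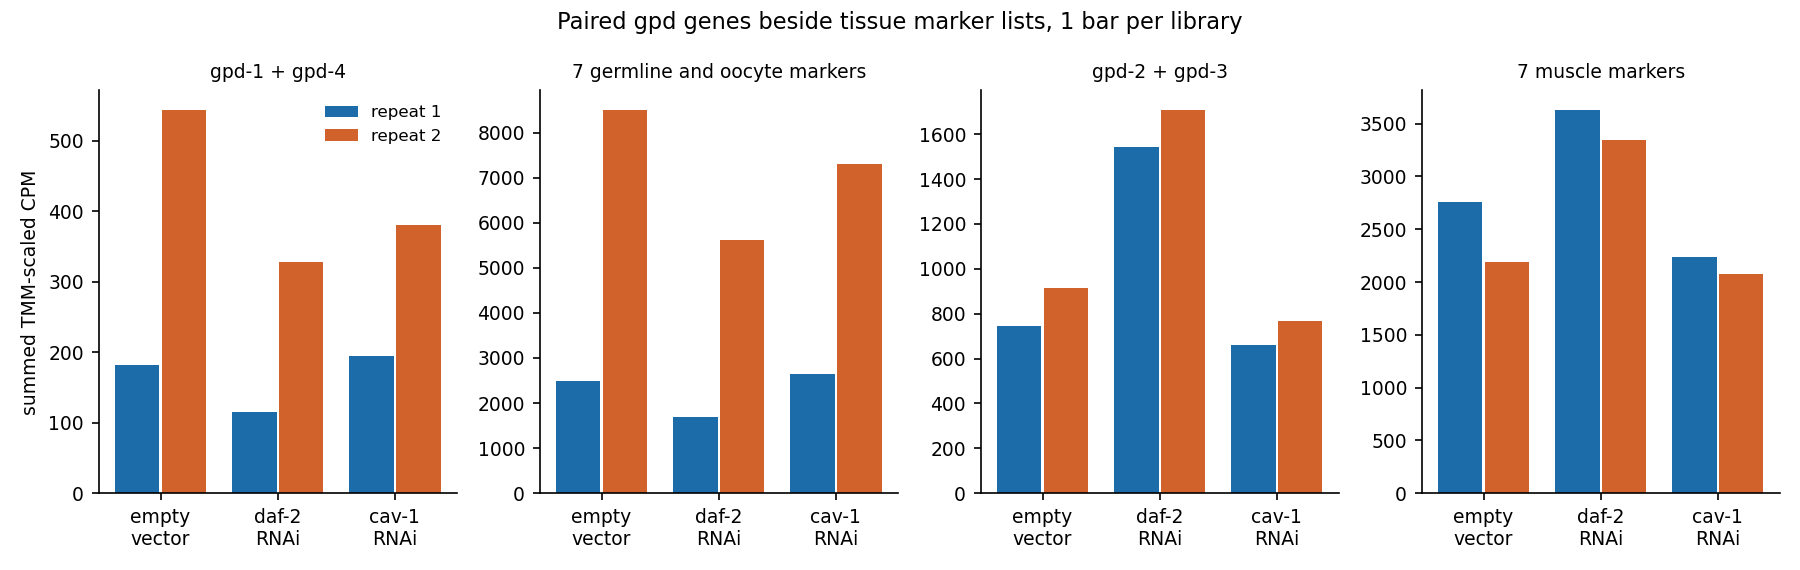
Summed TMM-scaled CPM of gpd-1 and gpd-4, of 7 germline and oocyte markers, of gpd-2 and gpd-3, and of 7 muscle markers, with 1 bar per library (blue for repeat 1, orange for repeat 2) and axes from 0. gpd-1 with gpd-4 and the germline markers are higher in repeat 2 in every group, while gpd-2 with gpd-3 and the muscle markers are highest with daf-2 RNAi. In every group gpd-2 with gpd-3 is higher in repeat 2 and the muscle sum is lower.

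sodh-1 encodes an alcohol dehydrogenase of the sorbitol dehydrogenase family that oxidises short-chain alcohols, and it was the only one of the 9 tested genes called lower with daf-2 RNAi. Its level was 97.2 and 140 CPM with EV, 54.8 and 46.2 CPM with daf-2 RNAi, and 47.9 and 35.3 CPM with cav-1 RNAi. Both EV libraries lay above all 4 treated libraries, and the treated groups overlapped. With daf-2 RNAi sodh-1 fell by 1.2 (SE 0.27, adjusted p = 0.0243) on the log2 scale, by 0.82 in repeat 1 and 1.58 in repeat 2. The size of the fall rests on repeat 2. Without the EV library of repeat 2 the log2 difference was -0.77, and without the daf-2 RNAi library of repeat 2 it was -0.84. Both fits lost the call.

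The difference of sodh-1 between cav-1 RNAi and EV was numerically larger, at -1.48 (SE 0.27, 95% interval -2.08 to -0.88), with -1.01 in repeat 1 and -1.96 in repeat 2. Its unadjusted p was 0.000216, and after adjustment over 14378 genes it did not pass (adjusted p = 0.153). It did pass with TMM factors from all genes (-1.45, adjusted p = 0.00160), and in the authors' deposited table (log2 fold change -1.33, adjusted p = 0.000847). The all-gene factors hardly moved the estimate, but the prior degrees of freedom of that fit were 53.4 against 8.68. Between the treatments sodh-1 differed by -0.29 (95% interval -0.88 to 0.31, adjusted p = 0.449).

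The neighbouring gene sodh-2 was almost silent. It had 7 and 2 counts with EV, 9 and 9 counts with daf-2 RNAi, and 1 and 1 counts with cav-1 RNAi. The exact 95% Poisson intervals, which cover counting error only, ran from 4.12 to 17.1 for 9 counts and from 0.0253 to 5.57 for 1 count, and EV repeat 1 (2.81 to 14.4) overlapped both. sodh-2 was left out of the test here by the filter on low counts. In the authors' deposited table its p-values were 0.511 for daf-2 RNAi against EV, 0.339 for cav-1 RNAi against EV and 0.108 for cav-1 RNAi against daf-2 RNAi, with no adjusted p. sodh-2 gave at most 0.587% of the counts of both genes in any library, and since it overlaps sodh-1 at the 3′ end and the strand setting of the counting is not stated, some of these counts may be reads of sodh-1.

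**Figure D3:**
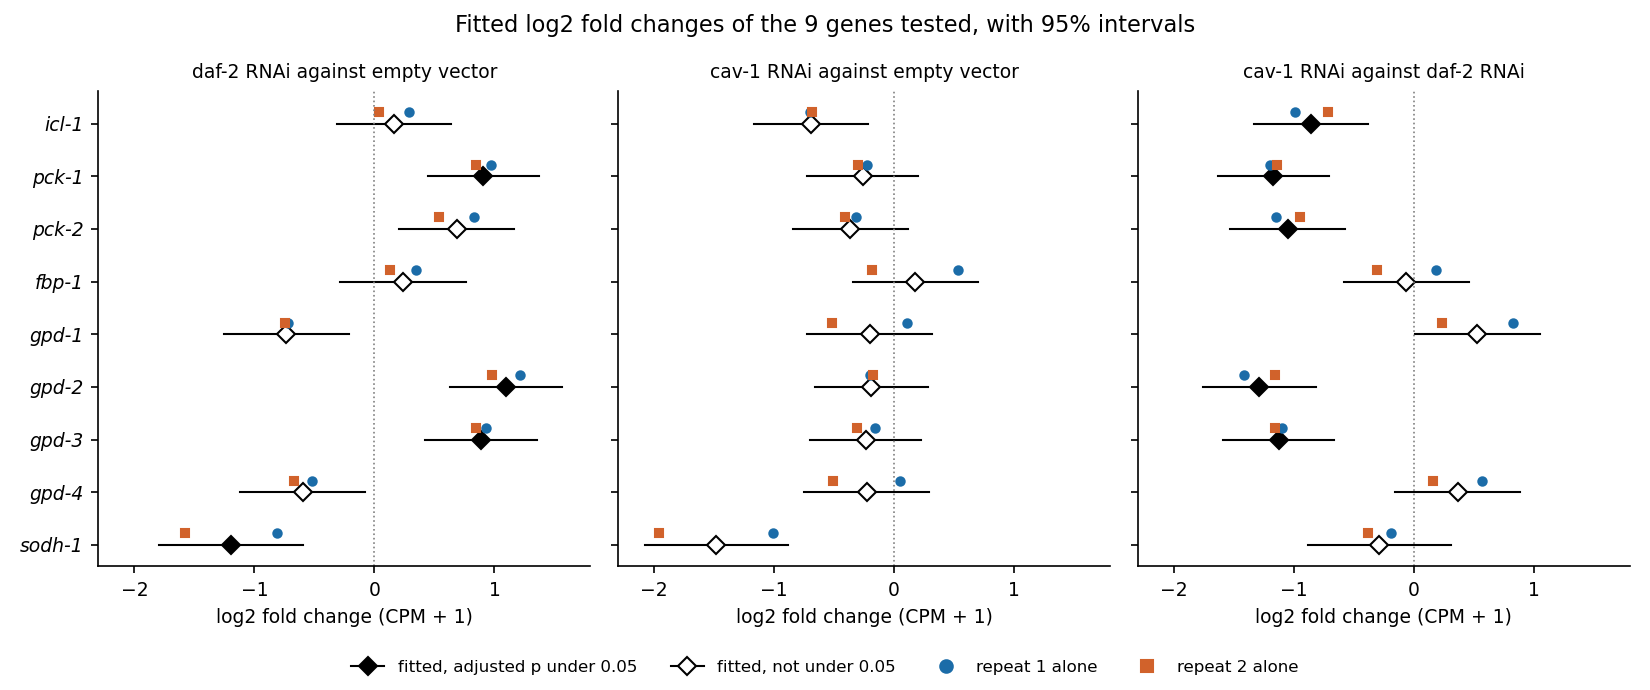
Log2 fold changes on the CPM + 1 scale for the 9 genes tested in 3 comparisons, with diamonds and bars for the fitted value and its 95% interval (filled where the adjusted p is under 0.05), and blue circles and orange squares for repeats 1 and 2 alone. With daf-2 RNAi pck-1, gpd-2 and gpd-3 lie between 0.89 and 1.09 and sodh-1 at -1.2, and with cav-1 RNAi against EV all diamonds are open.

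Levels of different genes were compared per kilobase of the longest transcript, as CPM per kb in the EV libraries. gpd-3 was highest at 419 ± 41.8 CPM per kb (SD, n = 2), followed by pck-2 at 357 ± 124, gpd-2 at 299 ± 60.6, icl-1 at 296 ± 60.1, gpd-1 at 226 ± 161 and pck-1 at 183 ± 13.2. Neighbours in this order down to pck-1 differed by less than their summed SDs, so their ranks are not settled by 2 libraries. fbp-1 followed at 123 ± 14.6, below pck-1 by more than both SDs. gpd-4 at 97.0 ± 67.3 and sodh-1 at 90.3 ± 22.9 did not separate from each other or from fbp-1 beyond their spread, and sodh-2 came last at 0.139 ± 0.113. The 10 genes together took 0.321% and 0.418% of all counts with EV, 0.533% and 0.597% with daf-2 RNAi, and 0.275% and 0.328% with cav-1 RNAi.

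Neighbouring pathways were read from lists of 74 genes, of which 73 were tested. With daf-2 RNAi against EV 2 of the 73 were called higher and 0 lower (2.74%), with a median log2 fold change of 0.15. With cav-1 RNAi against EV none was called, and against daf-2 RNAi 0 were higher and 6 lower (8.22%), with a median of -0.20. The list share in the last comparison lay close to the 6.87% of all genes called lower there.

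The glycolysis list, with 14 of 15 genes tested, had no call with daf-2 RNAi (median 0.18) or with cav-1 RNAi (median -0.03) against EV. The members with the highest CPM were aldo-2, a fructose-bisphosphate aldolase, and enol-1, the enolase. aldo-2 stood at 746 and 1393 CPM with EV, 1181 and 1513 CPM with daf-2 RNAi, and 548 and 1020 CPM with cav-1 RNAi. The treated groups did not overlap for aldo-2, which was lower with cav-1 RNAi than with daf-2 RNAi by a log2 difference of -0.84 (SE 0.23, adjusted p = 0.0442). pyk-2, a pyruvate kinase acting in the glycolytic direction only, also passed in that comparison (-1.17, SE 0.31, adjusted p = 0.0377), while enol-1 did not (-0.38, adjusted p = 0.223). With daf-2 RNAi against EV aldo-2 gave 0.39 (adjusted p = 0.304) and pyk-2 0.90 (adjusted p = 0.112). The aldo-2 call was lost under 9 of 16 alternatives, among them leaving out daf-2 RNAi repeat 1 (-0.57, adjusted p = 0.455) or either cav-1 RNAi library. The pyk-2 call was lost under 6 of 16, among them leaving out daf-2 RNAi repeat 1 (adjusted p = 0.0805) or cav-1 RNAi repeat 1 (-0.65, adjusted p = 0.212).

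The citric acid cycle list of 20 genes, the list of 11 genes for pyruvate and malate, and the 4 pentose phosphate genes had no call in any comparison. In the comparison of daf-2 RNAi with EV their medians were 0.03, -0.03 and -0.01. The citrate synthase gene cts-1 gave -0.14 and the aconitase gene aco-2 gave 0.16, with 95% intervals from -0.62 to 0.33 and from -0.32 to 0.65. Of the malate dehydrogenases, cytosolic mdh-1 gave 0.38 (adjusted p = 0.290) and mitochondrial mdh-2 gave -0.04 (adjusted p = 0.926). The transketolase gene tkt-1 gave 0.17 and the glucose-6-phosphate dehydrogenase gene gspd-1 gave -0.12.

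Among 14 alcohol and aldehyde dehydrogenase genes outside the sodh pair, 2 were called higher with daf-2 RNAi, both of the aldehyde dehydrogenase family. alh-11 stood at 22.2 and 52.2 CPM with EV and at 40.1 and 102 CPM with daf-2 RNAi, and rose by 0.89 (SE 0.23, adjusted p = 0.0432) with overlapping groups but a rise in both repeats. alh-2 had 1 and 0 counts with EV, 29 and 81 with daf-2 RNAi, and 0 and 8 with cav-1 RNAi, and was called in both comparisons that involve daf-2 RNAi (adjusted p = 0.00402 and 0.00591). It stayed near the pseudocount, so its fitted fold change is not printed. The 2 genes of the list with the highest CPM, alh-8 and alh-9, gave 0.38 (adjusted p = 0.290) and 0.71 (adjusted p = 0.112) with daf-2 RNAi against EV. Against daf-2 RNAi, cav-1 RNAi gave -0.83 for alh-8 (adjusted p = 0.0371) and -0.33 for alh-9 (adjusted p = 0.337). The alh-11 call was lost under 7 of 16 alternatives, among them leaving out any single EV or daf-2 RNAi library (adjusted p from 0.145 to 0.277). The alh-8 call was lost under 8 of 16, among them leaving out daf-2 RNAi repeat 1 (adjusted p = 0.309) or either cav-1 RNAi library (0.226 and 0.153). That of alh-2 against daf-2 RNAi was lost without cav-1 RNAi repeat 1 (adjusted p = 0.145).

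The list for acetyl and propionyl CoA, 10 genes in all, had 2 calls, both lower with cav-1 RNAi than with daf-2 RNAi. acdh-1, an acyl-CoA dehydrogenase of propionate breakdown, stood at 40.6 and 118 CPM with daf-2 RNAi and 18.4 and 52.4 CPM with cav-1 RNAi (log2 difference -1.13, SE 0.30, adjusted p = 0.0396). mce-1, the methylmalonyl-CoA epimerase of the vitamin B12-dependent route, stood at 277 and 137 CPM and at 166 and 73.2 CPM in the same groups (-0.81, SE 0.22, adjusted p = 0.0434). The groups overlapped for each gene, and within each repeat the cav-1 RNAi library was the lower. The acdh-1 call was lost under 5 of 16 alternatives, among them leaving out daf-2 RNAi repeat 2 (adjusted p = 0.160) or cav-1 RNAi repeat 1 (adjusted p = 0.226). The mce-1 call was lost under 7 of 16, among them leaving out either daf-2 RNAi library (adjusted p = 0.168 and 0.217) or cav-1 RNAi repeat 1 (adjusted p = 0.119). The genes of the list with the highest CPM, acs-19, an acetyl-CoA synthetase, and pccb-1, a propionyl-CoA carboxylase subunit, gave 0.80 (adjusted p = 0.0943) and 0.09 (adjusted p = 0.801) with daf-2 RNAi against EV and were not called in any comparison.

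**Figure D4:**
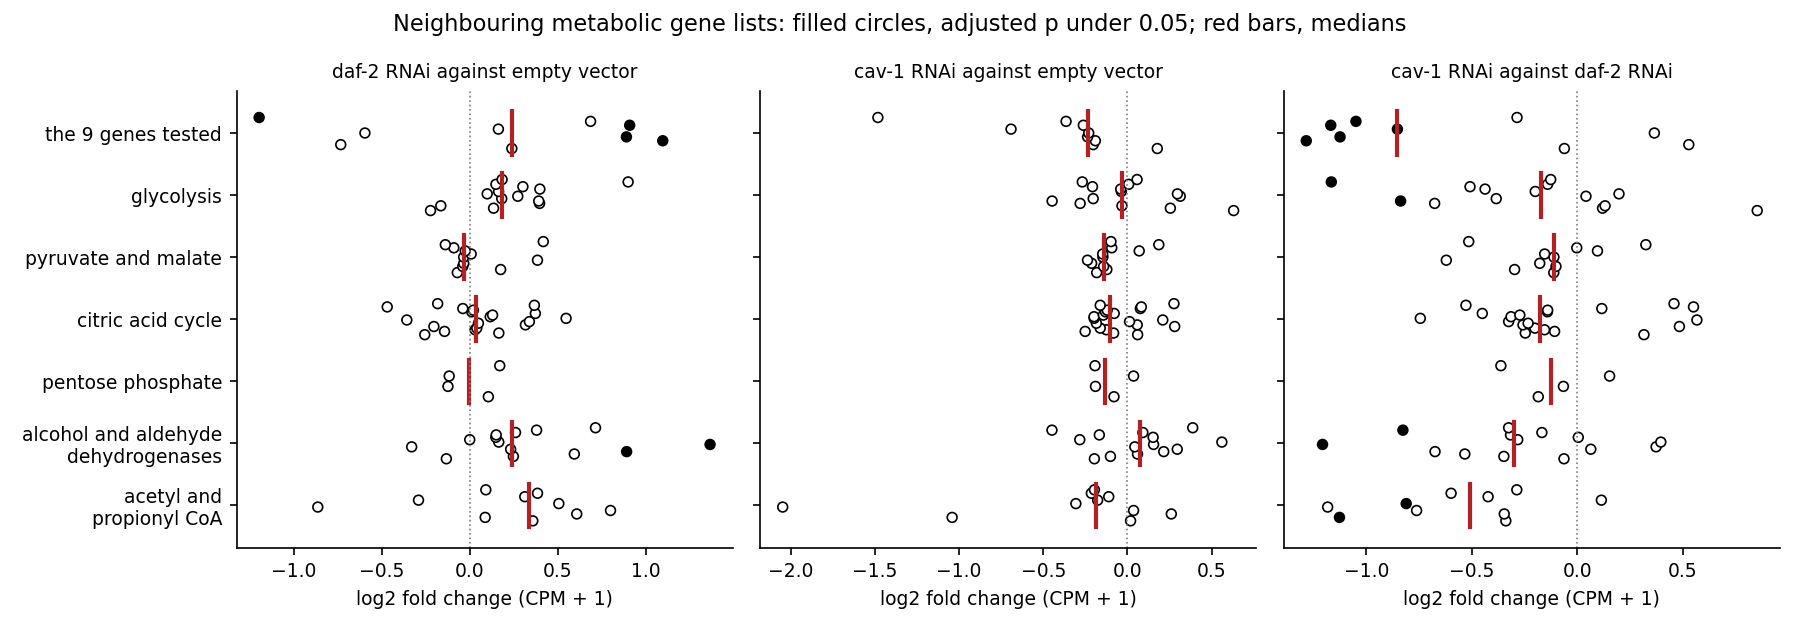
Log2 fold changes on the CPM + 1 scale in 3 comparisons for the 9 genes tested and for 6 lists of neighbouring metabolic genes, 1 circle per gene, filled where the adjusted p is under 0.05, with red bars at the list medians; the horizontal scales differ between panels. With daf-2 RNAi against EV the 9 genes spread from -1.2 to 1.09, while the citric acid cycle genes stay between -0.47 and 0.55.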

How the data were processed

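Polyadenylated RNA was sequenced from 6 whole-worm samples; stranded libraries were made from 1 µg of RNA, per the labels' protocols. The authors deposited 1 table of raw counts per gene with their own comparisons (log2 fold changes and adjusted p-values), which are quoted only as the authors' deposited table. Build WBcel235, TopHat2 2.0.13, cutadapt 1.7.1 and DESeq2 1.10.1 are named in the submitters' processing notes, besides Cufflinks 2.2.1; which tool counted reads, and how shared reads were handled, is not given in the sources used here. Of 46748 genes, 494 (1.06%) hold no value and were left out. Because those entries failed a format check for counts, a count-based test foreseen in the design was replaced by its stated substitute, limma-trend (R 4.3.3, limma 3.58.1).

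Genes needed 0.348 CPM (10 counts in a library of median size) in at least 2 libraries and 15 counts in total, leaving 14378 genes with 99.96% of the counts. Counts were scaled by TMM (factors 0.922 to 1.04; 30% of log ratios and 5% of levels trimmed), and log2(CPM + 1) was fitted over all 6 libraries with group and repeat (2 residual degrees of freedom, prior 8.68). Adjusted p-values are Benjamini-Hochberg over all genes tested, 2-sided, with a threshold of 0.05. Fold changes on the CPM + 1 scale understate the change of low genes. The design text states that each repeat held every group, and deviations of same-numbered libraries correlated at 0.891, 0.807 and 0.812 across genes. Whether the repeats were separate cultures beyond that is not stated, and p-values measure only the spread between these samples. Sequencing depth gives 10 counts as 0.304 to 0.393 CPM; intervals on counts and shares cover counting error only, at 95%. The fit was also run on simulated counts. There all groups of a repeat shared the same profile apart from the genes set to change. That run therefore cannot show how the fit performs where effects differ between repeats.

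The 10 genes and all lists were chosen with earlier results of these data known. Named genes are the 10, daf-2 and cav-1, called genes of the pathway lists and the 2 most abundant of each list. Of 110 list names 109 matched a gene. Gene coordinates and transcript lengths came from the Ensembl annotation of the same build. Alternatives covered the block, scaling, pseudocount, filter, transcript length, merged paralogs and leaving out each library.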

Additional observations from a re-analysis of the deposited data

How the results depend on the processing

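Without the replicate block the number of genes called fell to 0 in all 3 comparisons, and so did the number called among the 10 genes. With the block, the counts of genes called were 1070 for daf-2 RNAi against EV, 1 for cav-1 RNAi against EV and 1526 for cav-1 RNAi against daf-2 RNAi. In the same order, leaving out each library in turn gave 665 to 2214, 0 to 398 and 70 to 4234, with the lone library of a group assumed to vary like the others. The fits without a library had 1 residual degree of freedom against 2. Their prior degrees of freedom were 4.92 without cav-1 RNAi replicate 1 and infinite otherwise, against 8.68. Calls gained or lost there cannot be laid to the library left out alone. A stricter filter gave 579 for daf-2 RNAi against EV. Median-of-ratios scaling gave 6 for cav-1 RNAi against EV and 3093 (1902 higher) for cav-1 RNAi against daf-2 RNAi, and a pseudocount of 0.25 gave 2 for cav-1 RNAi against EV. TMM factors from all genes, chosen after seeing the data, gave 64 for cav-1 RNAi against EV and 3236 (1693 higher) for cav-1 RNAi against daf-2 RNAi, where the usual factors called 538 higher and 988 lower. For daf-2 RNAi against EV, 620 were higher and 450 lower, against 415 and 164 with the stricter filter, 756 and 409 with total-count scaling and 313 and 514 without EV replicate 2.

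Among the 9 genes tested, 4, 0 and 5 were called in these comparisons; without a filter on low counts 1 and 3 were called in the comparisons with daf-2 RNAi, and leaving out a library gave 1 to 5, 0 to 1 and 0 to 5. With all-gene TMM factors 1 gene, sodh-1, was called for cav-1 RNAi against EV, in a fit with prior degrees of freedom of 53.4 against 8.68. All 5 calls of cav-1 RNAi against daf-2 RNAi were lost without cav-1 RNAi replicate 1, those of icl-1, pck-1 and pck-2 without daf-2 RNAi replicate 1, and those of icl-1 and pck-2 without cav-1 RNAi replicate 2. sodh-1 passed for cav-1 RNAi against EV, at -1.91 to -1.27, without EV replicate 1, either daf-2 RNAi library or cav-1 RNAi replicate 2. The rises of pck-1 and gpd-3 with daf-2 RNAi were lost on leaving out any single EV or daf-2 RNAi library, and that of gpd-2 without daf-2 RNAi replicate 1 (that of gpd-3 also without cav-1 RNAi replicate 2), with log2 values from 0.83 to 1.16. The adjusted p of gpd-1 was 0.0341 and 0.0324 without either cav-1 RNAi library, and that of pck-2 was 0.0395 with total-count scaling. Over 426 alternative values of the 9 genes in 3 comparisons, 378 kept their side of the threshold, 40 lost a call, 8 gained one and 0 called values changed direction. The cause was not tested. Other count-based tests were not run because of the format of the table. The 8 calls of pathway-list genes were each lost without the replicate block, and those other than alh-2 also with a pseudocount of 5. Depth limits sodh-2, which had at most 9 counts in a library.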

Other observations

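Outside the rule for named genes, and chosen after its values were seen, the fat-oxidation gene acs-2, an acyl-CoA synthetase, gave the lowest log2 fold change of the 73 list genes tested with cav-1 RNAi against EV. Its level was 47.3 and 67.0 CPM with EV, 41.5 and 22.3 CPM with daf-2 RNAi, and 21.2 and 7.65 CPM with cav-1 RNAi. Both cav-1 RNAi libraries lay below all 4 others, and within each repeat the order was EV, daf-2 RNAi, cav-1 RNAi, the order also seen for sodh-1. The log2 difference from EV was -2.05 (95% interval -2.89 to -1.21) with cav-1 RNAi and -0.86 with daf-2 RNAi, and neither passed limma's test after adjustment (adjusted p = 0.161 and 0.198).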
